A study of Homo sapiens with 6 samples.

Results

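Sphingosine-1-phosphate (S1P) is a signalling lipid whose level is set by a small group of genes, and 10 of them were followed here in HEK293 cells with and without the mitochondrial E3 ubiquitin ligase MUL1. The genes are given by name and by their place in the pathway, with earlier results of these data known: the kinases SPHK1 and SPHK2, the exporter SPNS2, the phosphatases SGPP1 and SGPP2, the lyase SGPL1 and the receptors S1PR1, S1PR2, S1PR3 and S1PR5. They are 10 of the 57123 genes with counts, and all 10 were among the 25125 genes that passed the filter on low counts and were tested. HEK293 is a cell line derived from human embryonic kidney. RNA was sequenced from WT HEK293 cells (3 libraries) and from HEK293 cells labelled MUL1(-/-) (3 libraries), both grown in DMEM with fetal calf serum and without further treatment. MUL1 had been inactivated in these cells with CRISPR-Cas9, and the study worked with more than 1 clone of each genotype, but which clone or clones the libraries came from is not given in the sources used here. Nothing in the labels says that the 3 libraries of a genotype came from separate cultures, so p-values measure the spread between these libraries, which may be technical.

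S1P is made when a sphingosine kinase phosphorylates sphingosine, the backbone that ceramidases release from ceramide. SPHK1 acts mainly in the cytosol and at the plasma membrane, and SPHK2 is also found in the nucleus and at mitochondria. S1P is returned to sphingosine by the phosphatases of the endoplasmic reticulum, or cleaved for good by the lyase into hexadecenal and phosphoethanolamine. S1P that leaves the cell through SPNS2 acts on G protein-coupled receptors, of which S1PR1 couples to Gi and S1PR2 and S1PR3 also reach Gq and the G proteins upstream of RhoA.

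The deposited values were counts per exon bin, a piece of exon cut where transcripts or genes begin and end, and bins were added up to give each gene a count. Over all genes the totals ranged from 127015142 to 142803296 per WT library and from 121917971 to 122441959 per MUL1(-/-) library, with a read counted once in every bin it touched. Levels are given as CPM (counts per 1000000 counts of the library) after TMM scaling, and differences as log2 fold changes of MUL1(-/-) over WT from edgeR's quasi-likelihood test, with p-values adjusted by Benjamini-Hochberg over all tested genes.

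MUL1 RNA itself was measured at 15.4, 15.2 and 19.0 CPM in WT replicates 1 to 3 and at 18.7, 16.7 and 19.2 CPM in MUL1(-/-) replicates 1 to 3. The ranges overlapped and the log2 fold change was 0.14 ± 0.10 (SE, adjusted p = 0.321). MUL1 RNA thus gives no check of the genotype labels. HEK293 markers were present in every library: VIM, the most abundant of them, averaged 842 ± 93.1 CPM in WT (SD, n = 3) and 665 ± 61.7 in MUL1(-/-), and KRT8 324 ± 18.7 and 170 ± 12.1.

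The kinases and the exporter gave the clearest differences, and they did not move one way. SPHK1 fell in MUL1(-/-) cells, to 0.613 of its WT level, while SPHK2 rose 1.74-fold and SPNS2 rose 1.81-fold. The phosphatase SGPP2 and the lyase SGPL1 fell by smaller amounts, the receptors S1PR2 and S1PR3 rose about as much as each other (1.43-fold and 1.41-fold), and the receptor S1PR5 fell to 0.610 of its WT level. S1PR1 and the phosphatase SGPP1 did not pass the test.

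Counted by the adjusted p alone (0.05), 4 of the 10 genes rose (SPHK2, SPNS2, S1PR2 and S1PR3) and 4 fell (SPHK1, SGPP2, SGPL1 and S1PR5), where 18.8% of all tested genes rose and 18.7% fell by the same rule. When library totals replaced TMM factors, the calls over all genes shifted from 4716 higher and 4706 lower to 5871 higher and 3783 lower, and the 10 genes gave 4 higher and 3 lower, SGPL1 being lost. With the further requirement of an absolute log2 fold change above 1, none of the 10 passed in either direction, against 4.23% of tested genes higher and 3.87% lower. That count of 0 was the same with DESeq2 and with limma-voom, and 9 of the 10 had an unadjusted p under 0.05 in edgeR, as had 45.8% of all tested genes. In 9 genes, all but S1PR1, the libraries of the genotypes did not overlap, 4 being higher and 5 lower. Over all tested genes 24.1% were higher and 24.4% lower without overlap, so that a non-overlap in a single gene is common in these data. The median log2 fold change of the 10 genes was -0.03, and that of all tested genes -0.01.

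**Figure D1:**
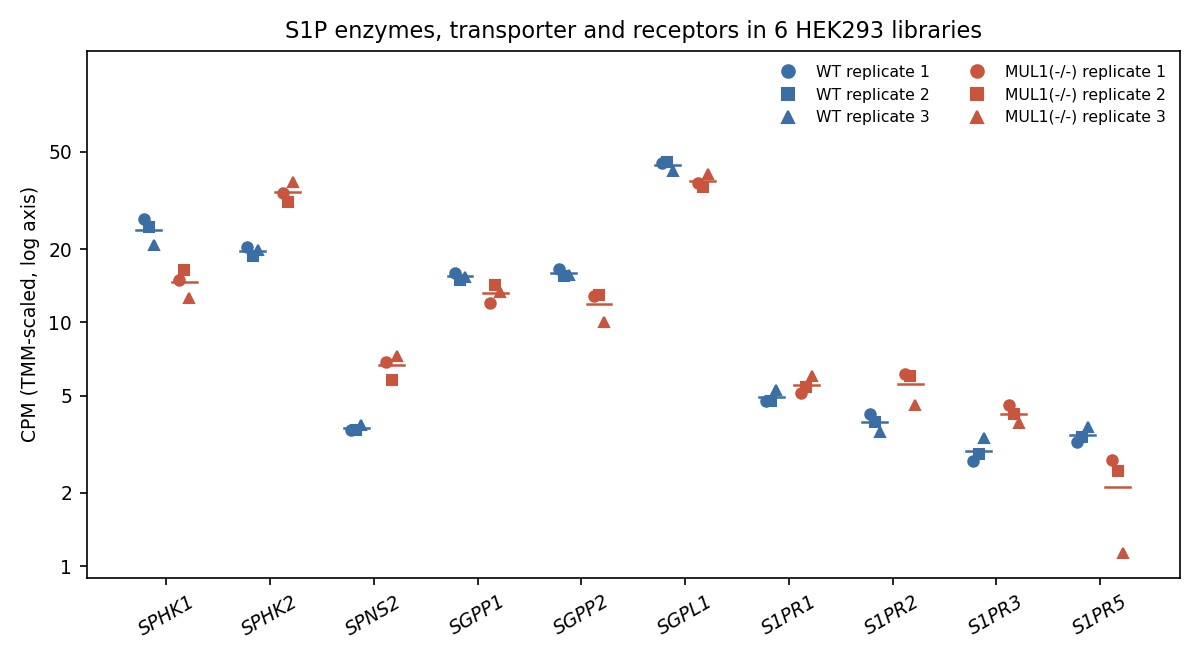
Level of each gene in each library, in TMM-scaled CPM on a log axis. Blue symbols are the 3 WT libraries, red symbols the 3 MUL1(-/-) libraries (circle, square and triangle for replicates 1, 2 and 3), and short lines are group means. SPHK1 and SPHK2 move in opposite directions, and S1PR5 in MUL1(-/-) replicate 3 lies at 1.14, well under the other libraries.

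SPHK1, the kinase most often tied to growth factor signalling, lies on the plus strand at chr17:76376584-76387860 (GRCh38). Its level was 26.4, 24.7 and 20.7 CPM in WT replicates 1 to 3 and 14.9, 16.5 and 12.6 CPM in MUL1(-/-) replicates 1 to 3. All MUL1(-/-) libraries lay below all WT libraries. The log2 fold change was -0.71 ± 0.11 (SE, 95% interval -0.94 to -0.47, adjusted p = 0.000145). Of its 29 exon bins, 17 had at least 60 counts over the 6 libraries, and all 17 were lower in MUL1(-/-), 13 of them without overlap between the genotypes. Over all counted bins of tested genes, 21.1% were lower without overlap. Bins of the same gene share reads and the level of that gene, so here and below they are not separate observations.

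The annotation gives SPHK1 several first exons. Those upstream, between 76376584 and 76383977, together held 2.02% ± 0.33 of the gene's counts in WT and 2.59% ± 0.73 in MUL1(-/-) (SD, n = 3). The first exon that begins at 76384609 held 14.4% ± 0.8 and 15.1% ± 2.5, so it carried most of the counts at the 5′ end in both genotypes. Its level was 3.99, 3.36 and 3.04 CPM in WT and 1.87, 2.501 and 2.21 CPM in MUL1(-/-), a ratio of 0.633 between the means, close to the 0.605 of the exons that follow. The fall was thus seen from this first exon to the end of the gene. These stretches were set after the bin values were seen and carry no test. The 250 bases before this start, chr17:76384359-76384608 on the plus strand (RefSeq, GRCh38.p14), are shown because the counted SPHK1 RNA begins directly after them, with the letters GGGCGG (the GC box, which Sp1-type factors are known to bind, searched on both strands) in capitals.
SPHK1: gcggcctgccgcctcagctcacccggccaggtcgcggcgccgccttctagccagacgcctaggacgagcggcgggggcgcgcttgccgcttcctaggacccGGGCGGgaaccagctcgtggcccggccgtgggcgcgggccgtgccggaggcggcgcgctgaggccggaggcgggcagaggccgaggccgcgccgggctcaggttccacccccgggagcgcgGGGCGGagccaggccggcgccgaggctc
The stretch was 80.8% G and C, a content reached by 2.63% of the 35116 RefSeq windows of the same length and position. It held 2 GC boxes, and 42.6% of those windows held at least 1. The letters ACGTG are a form of the core of the hypoxia response element bound by HIF factors. They were searched for on both strands because HIF-1α is among the proteins the study followed. They were not in this SPHK1 stretch and were in 18.5% of the windows. Other forms of the core, and sequence outside the stretches shown, were not searched.

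SPHK2 lies on the plus strand at chr19:48619291-48630717. Its level was 20.5, 18.8 and 19.9 CPM in WT and 34.0, 31.03 and 37.8 CPM in MUL1(-/-). Every MUL1(-/-) library was above every WT library. The log2 fold change was 0.80 ± 0.09 (95% interval 0.61 to 0.98, adjusted p = 4.69e-06).

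The rise of SPHK2 was not even along the gene. Of 32 bins with at least 60 counts, 31 were higher in MUL1(-/-) and 25 were higher without overlap, where 20.2% of all counted bins were. The 5 bins of the most upstream first exons (48619291-48619689) had 1.11, 1.08 and 0.953 CPM in WT and 1.202, 1.04 and 1.33 CPM in MUL1(-/-), and there the genotypes overlapped. The 8 bins around the downstream transcript starts (48624343-48625076, untranslated in the annotation) had 1.29, 1.301 and 1.25 CPM in WT and 3.33, 2.74 and 3.07 CPM in MUL1(-/-), a 2.38-fold ratio of means. From the coding exon at 48625891 to 48629916 the ratio was 1.80. As shares of the gene's counts, the upstream first exons went from 5.32% ± 0.49 to 3.47% ± 0.10 and the downstream start bins from 6.50% ± 0.37 to 8.91% ± 0.83 (SD, n = 3). These stretches too were set after the bins were seen and are given without a test.

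Bin by bin, the planned exact two-sided permutation test on the share of SPHK2 counts can go no lower than p = 0.1 with 3 libraries against 3. It reached that value, with shares that did not overlap, in 12 of the 32 SPHK2 bins, 5 higher and 7 lower in MUL1(-/-). Over all counted bins of tested genes 8.39% had a higher and 8.33% a lower share without overlap. Neighbouring bins share reads, so the 12 bins are fewer than 12 separate observations. The bins with a lower share were the upstream exons and the last coding bin (48630434-48630717), and all 7 are touched by exons of genes on the other strand. At the 5′ end these are RPL18, a ribosomal protein gene at 1379 ± 131 CPM in WT, and ENSG00000268093, and at the 3′ end DBP. The counting was not stated to use strand, so reads of SPHK2 and of these genes cannot be told apart in those bins, which held 20.8% of the SPHK2 counts together with the other touched bins. Without them the SPHK2 log2 fold change was 0.88 ± 0.09 (adjusted p = 2.08e-06).

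The 96 bases between the exon that ends at 48624855 and the exon that begins at 48624952 (chr19:48624856-48624951, plus strand, RefSeq, GRCh38.p14) belong to no exon bin and lie among the downstream start bins, with 5 of the 8 bins before them (ratios of 2.16 to 3.05) and 3 after them (2.08 to 2.36). The RefSeq start that they precede is at 48625029. As they lie between exons, they may be intron in some transcripts, and whether they act as a promoter was not tested. They are shown as the part of that region outside any exon that the RefSeq promoter windows cover, with the GC box in capitals as above.
SPHK2: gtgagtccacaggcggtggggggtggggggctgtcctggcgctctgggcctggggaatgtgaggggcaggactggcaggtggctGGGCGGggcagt
This SPHK2 stretch was 72.9% G and C, a content reached by 15.6% of RefSeq windows cut at the same distance. It held 1 GC box, and 22.8% of those windows held at least 1. ACGTG was not in it and was in 7.24% of those windows.

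**Figure D2:**
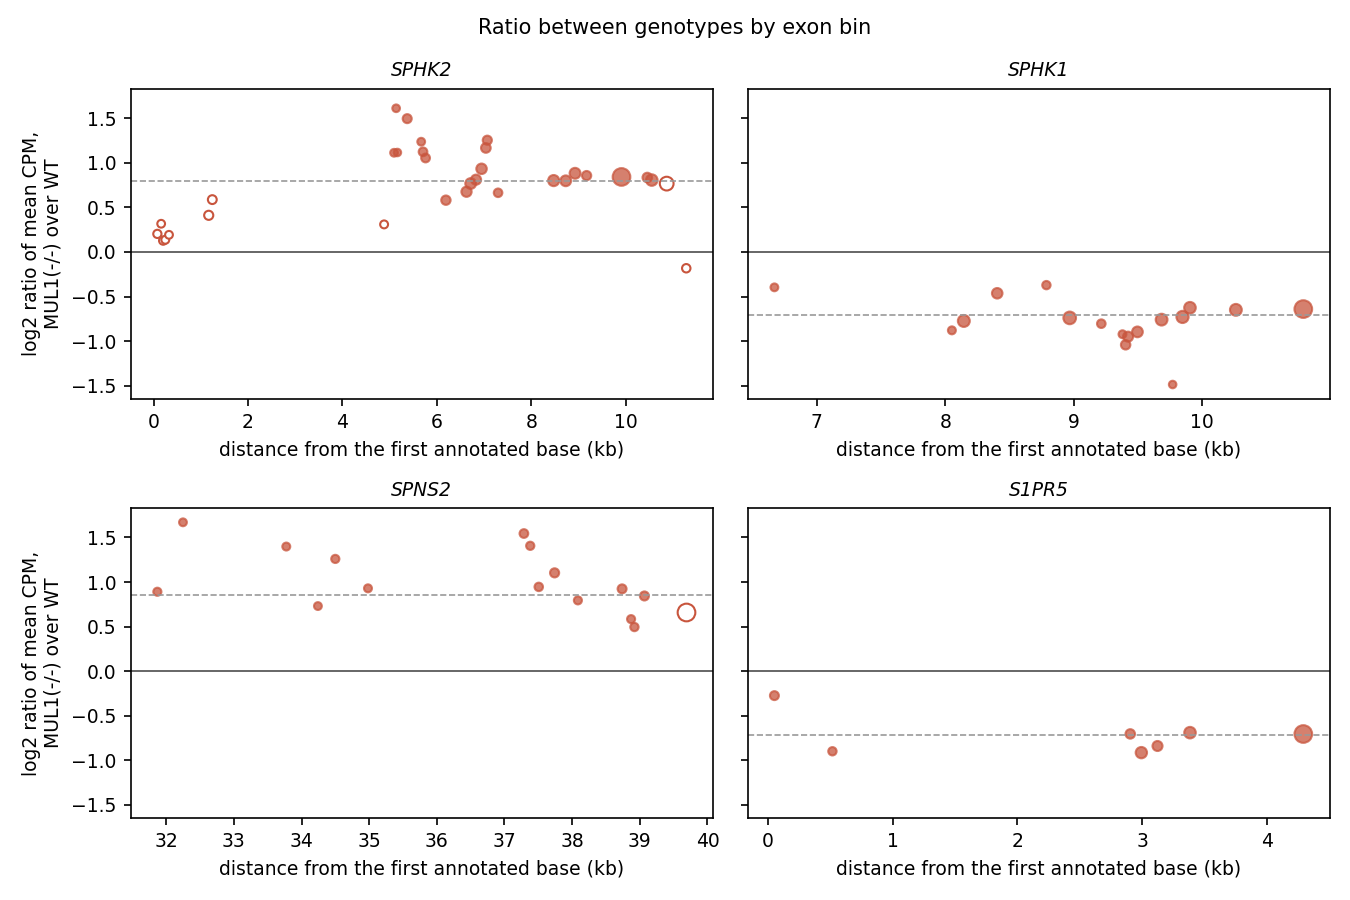
Ratio of mean CPM in MUL1(-/-) over WT (log2) for each exon bin with at least 60 counts, against the distance of the bin from the first annotated base of the gene in kb. Larger points hold more counts, open points are bins touched by exons of another gene, and the dashed line is the log2 fold change of the whole gene. In SPHK2 the plotted downstream start bins (7 of the 8) lie above the dashed line and the bins at the 5′ end lie below it, and in SPHK1 and S1PR5 every plotted bin is below 0.

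Because SPHK1 fell and SPHK2 rose, the more abundant kinase RNA was not the same in the genotypes. Per kb of exon, SPHK1 was at 5.99, 5.60 and 4.70 CPM per kb in WT and 3.39, 3.73 and 2.85 in MUL1(-/-). SPHK2 was at 3.41, 3.13 and 3.31 CPM per kb in WT and 5.67, 5.16 and 6.29 in MUL1(-/-). Within each library, the ratio of SPHK2 to SPHK1 level per kb was 0.569, 0.559 and 0.705 in WT and 1.67, 1.38 and 2.20 in MUL1(-/-). SPHK1 was thus the higher kinase in 3 of 3 WT libraries and SPHK2 in 3 of 3 MUL1(-/-) libraries. On the most counted exon bin of each gene the ratios were 0.602, 0.560 and 0.722 in WT and 1.60, 1.39 and 2.34 in MUL1(-/-), and the order changed in the same way. In CPM not divided by length, the summed level of both kinases was 40.6 to 46.9 in WT and 47.5 to 50.4 in MUL1(-/-). It moved less than either gene. The longer SPHK2 (6009 bases of exon bins, against 4416 in SPHK1) weighs more in this sum. The sum therefore does not tell whether total kinase RNA per length differed.

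SPNS2, the exporter that releases S1P from cells, lies on the plus strand at chr17:4498838-4539035. Its level was 3.62, 3.62 and 3.81 CPM in WT and 6.91, 5.81 and 7.32 CPM in MUL1(-/-), with no overlap. The log2 fold change of SPNS2 was 0.86 ± 0.12 (95% interval 0.61 to 1.11, adjusted p = 3.79e-05), the highest of the 10 genes. All 16 of its bins with at least 60 counts were higher in MUL1(-/-), 12 without overlap, where 20.2% of all counted bins were.

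The last SPNS2 bin, an untranslated stretch of 1022 bases, overlaps exons of MYBBP1A on the other strand, a gene at 201 ± 12.4 CPM in WT that was itself higher in MUL1(-/-) (log2 fold change 0.52 ± 0.07, adjusted p = 5.22e-05). This bin held 48.4% ± 3.3 of the SPNS2 counts in WT and 42.3% ± 1.7 in MUL1(-/-), and its level rose from 1.78 ± 0.13 to 2.81 ± 0.23 CPM. The other 26 bins rose from 1.90 ± 0.13 to 3.86 ± 0.56 CPM, a 2.03-fold ratio. Without touched bins the log2 fold change of SPNS2 was 1.03 ± 0.15 (adjusted p = 4.37e-05), which passes both thresholds. Whether reads of MYBBP1A are in the last bin was not tested, and without strand they cannot be told apart.

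Of the genes that remove S1P, SGPP2 and SGPL1 were lower, SGPL1 not in every setting, and SGPP1 missed the threshold. SGPP2 (chr2:222424517-222560948) was at 16.6, 15.5 and 15.6 CPM in WT and 12.9, 12.9 and 10.0 CPM in MUL1(-/-), a log2 fold change of -0.41 ± 0.10 (adjusted p = 0.00589). SGPL1 (chr10:70815961-70881173), the lyase that ends the pathway, was at 44.9, 45.6 and 41.9 CPM in WT and 37.1, 36.0 and 40.6 CPM in MUL1(-/-). The libraries of each gene did not overlap, but WT replicate 3 and MUL1(-/-) replicate 3 of SGPL1 lay close together.

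For SGPL1 the log2 fold change was -0.22 ± 0.08 (adjusted p = 0.0336), and the adjusted p reached 0.170 in the alternatives tried. SGPP1 (chr14:63684214-63728039) was at 15.99, 14.9 and 15.4 CPM in WT and 12.01, 14.3 and 13.4 CPM in MUL1(-/-), a log2 fold change of -0.22 ± 0.09 (95% interval -0.42 to -0.03, adjusted p = 0.0679) that missed the threshold. Its bins disagreed: the 3′ bin of 2443 bases was at 0.794 of its WT level, while the bin with the first exon was at 1.03. On the most counted bin alone the SGPP1 log2 fold change was -0.32 (adjusted p = 0.00681). This was the 1 of 16 alternatives with an adjusted p under 0.05, and in the others it reached 0.275. Summed, the phosphatases and the lyase gave 72.9 to 77.5 CPM in WT and 62.0 to 64.0 CPM in MUL1(-/-).

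Levels of different genes were compared per kb, over the most counted bin of each that no other gene touches, a bin of 1384 to 3957 bases in the receptors. On this scale the receptors averaged 0.625 to 1.22 CPM per kb in WT, against 3.53 (SPHK2) to 5.67 (SPHK1) in the kinases, phosphatases and lyase and 0.578 ± 0.130 in SPNS2. In WT the order of the receptors was S1PR1 (1.22 ± 0.10 CPM per kb), S1PR5 (1.14 ± 0.20), S1PR2 (1.11 ± 0.09) and S1PR3 (0.625 ± 0.080, SD, n = 3). The first 3 lay within each other's spread, and S1PR3 was below them in every WT library. In MUL1(-/-) it was S1PR2 (1.59 ± 0.25), S1PR1 (1.298 ± 0.066), S1PR3 (0.888 ± 0.064) and S1PR5 (0.702 ± 0.268). S1PR5 went from among the highest to the lowest on average, although its value in MUL1(-/-) replicate 1 (0.942) was close to that of S1PR3 (0.947).

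S1PR1, the receptor that guides lymphocyte egress and keeps vessels tight, was at 4.78, 4.75 and 5.28 CPM in WT and 5.12, 5.46 and 6.004 CPM in MUL1(-/-). These ranges overlapped, and the log2 fold change was 0.16 ± 0.11 (95% interval -0.07 to 0.40, adjusted p = 0.271). A difference of more than 0.40 in either direction lies outside that interval.

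S1PR2 (chr19:10221433-10231331, minus strand) was at 4.21, 3.90 and 3.57 CPM in WT and 6.14, 6.01 and 4.58 CPM in MUL1(-/-). The groups did not overlap, with MUL1(-/-) replicate 3 nearest to WT, and the log2 fold change was 0.52 ± 0.13 (adjusted p = 0.00551). S1PR2 shares its identifier in the count tables with DNMT1, the maintenance DNA methyltransferase on the same strand, and only the bin of 3513 bases at chr19:10221435-10224947 could be given to S1PR2 alone. DNMT1 itself was at 454 ± 19.3 CPM in WT and 604 ± 8.4 CPM in MUL1(-/-), far above S1PR2. Its log2 fold change was 0.41 ± 0.06 (adjusted p = 0.000105). Whether reads of DNMT1 RNA are in the S1PR2 bin was not tested.

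S1PR3 (chr9:88990863-89005010, plus strand) was at 2.70, 2.88 and 3.37 CPM in WT and 4.58, 4.21 and 3.87 CPM in MUL1(-/-). There was no overlap, and the log2 fold change of S1PR3 was 0.50 ± 0.13 (adjusted p = 0.00584). The last exon bin, which holds receptor coding sequence, carried 82.9% ± 3.1 of its counts in WT and 83.3% ± 1.3 in MUL1(-/-), and its ratio between the genotypes was 1.42. S1PR3 is joined in the tables with ENSG00000186354, an identifier that the name tables used here do not name.

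S1PR5 (chr19:10512742-10517931, minus strand), known best from natural killer cells and oligodendrocytes, was at 3.24, 3.39 and 3.74 CPM in WT and 2.73, 2.45 and 1.14 CPM in MUL1(-/-). Its libraries did not overlap, and MUL1(-/-) replicate 3 was the lowest by far. The log2 fold change was -0.71 ± 0.22 (95% interval -1.19 to -0.23, adjusted p = 0.0209). Without MUL1(-/-) replicate 3 it was -0.42 (adjusted p = 0.0186), and DESeq2 gave an adjusted p of 0.120. All 7 S1PR5 bins with at least 60 counts were lower in MUL1(-/-).

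S1PR4, the remaining receptor, is mainly a gene of blood cells. It had 2, 3 and 8 counts in WT and 6, 8 and 6 counts in MUL1(-/-), did not pass the filter and was not tested. At a floor of 3 counts per library, these values are too close to the floor to compare.

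Markers of other cell types in which S1P receptors are prominent were scarce. Of 18 tested cell identity markers, those of kidney and HEK293 included, 7 were called higher and 1 lower by both thresholds. These are 38.9% and 5.56%, beside 4.23% and 3.87% of all tested genes. The 5 endothelial markers summed to 0.480, 0.615 and 0.341 CPM in WT and to 1.11, 0.999 and 0.839 CPM in MUL1(-/-), with KDR having the most CPM over all libraries. PECAM1 and VWF were called higher, each at 0.439 CPM or less in every library, and CDH5 was at 0.0719 CPM or less. Of 3 tested blood cell markers, 2 were called higher. PTPRC, among them, was at 0.165, 0.0566 and 0.0635 CPM in WT and 0.292, 0.415 and 0.387 CPM in MUL1(-/-). LYZ was at 0.176 CPM or less in every library and did not pass the test, and CD3E had no counts in WT.

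The 4 fibroblast markers summed to 28.8, 34.1 and 26.6 CPM in WT and to 33.7, 30.2 and 39.6 CPM in MUL1(-/-), COL1A1 having the most CPM. COL3A1 and DCN were called higher, COL1A1 fell by the adjusted p (-0.39 ± 0.10, adjusted p = 0.00832) and PDGFRA did not pass. By the adjusted p alone, 4 of the 7 kidney and HEK293 markers fell (57.1%) and 1 rose (14.3%). Of all tested genes, 18.7% fell and 18.8% rose by this rule. By both thresholds, PAX2 was called lower (9.46 ± 1.48 CPM in WT, 2.72 ± 0.72 in MUL1(-/-)) and NEFM higher. The list summed to 1294 to 1513 CPM in WT and 923 to 1100 CPM in MUL1(-/-). The part of these marker differences in the receptor values was not tested. In such bulk RNA, fewer cells of a type and less RNA per cell cannot be told apart.

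Several of the 10 genes lay among genes that moved the same way. For each gene the median log2 fold change of the 20 nearest tested genes, 10 on each side, was taken. Around S1PR2 it was 0.51, with 15 of 20 neighbours higher, the same as S1PR2 itself (0.52). Around SPHK2 it was 0.59, with 18 of 20 higher and 8 of the 20 rising more than SPHK2. Around SPNS2 it was 0.43, with 17 of 20 higher but only 2 above SPNS2.

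Around SGPL1 the median was -0.39, with 16 of 20 lower and 14 of 20 below SGPL1, and around SGPP1 it was -0.16. For these genes the direction was therefore that of most genes beside them. S1PR5 went against its surroundings. Although it lies on the same arm of chromosome 19 as S1PR2, with a neighbour median of 0.59 and 20 of 20 neighbours higher, S1PR5 fell. Around SPHK1 (0.08), SGPP2 (-0.05), S1PR3 (-0.13) and S1PR1 (-0.06) the medians were small. SPHK1 was below 18 of its 20 neighbours, SGPP2 below 18 and S1PR3 above 19. These counts describe position only and carry no test.

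**Figure D3:**
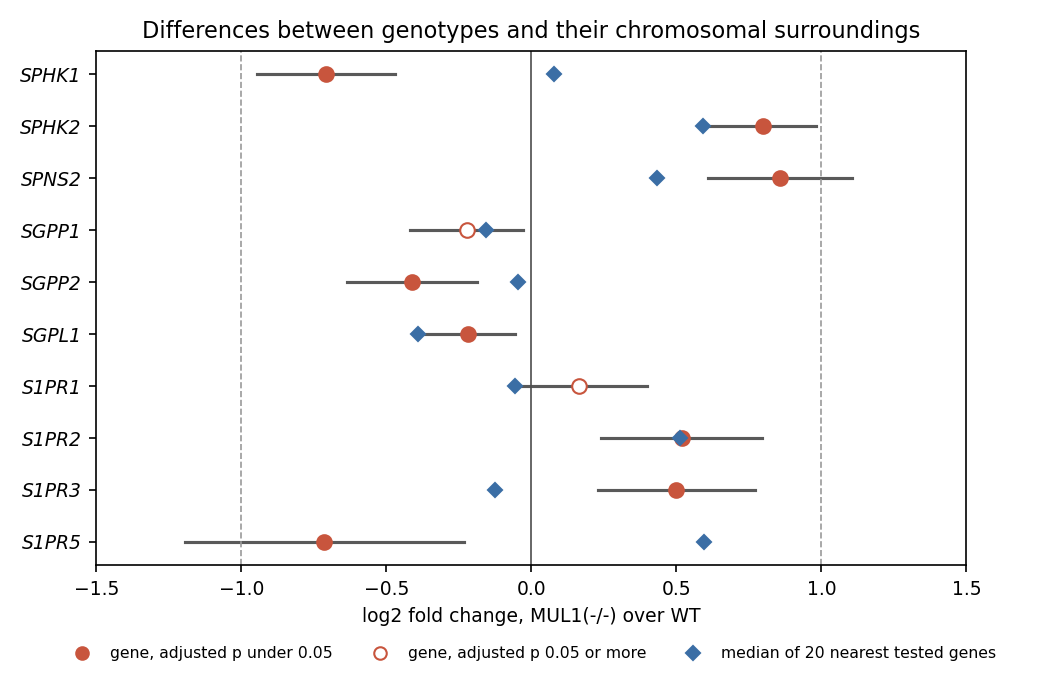
Log2 fold change of MUL1(-/-) over WT for each gene (circles, filled where the adjusted p was under 0.05) with its 95% interval (lines), and the median of its 20 nearest tested genes (blue diamonds). Dashed lines mark the fold change threshold of 1 and -1. The circle and the diamond coincide for S1PR2 (0.52 and 0.51) and lie on opposite sides of 0 for S1PR5 (-0.71 and 0.59).

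Genes that feed and surround the S1P step were taken from lists of 76 genes, of which 72 were tested. By the adjusted p alone 15 rose, 9 fell and 48 did not pass, and 2 were called higher and 2 lower by both thresholds. These are 20.8% and 12.5% of the 72 by the adjusted p, beside 18.8% and 18.7% of all tested genes, and 2.78% each by both thresholds, beside 4.23% and 3.87%, so the lists were near or below the background. The median log2 fold change over the 72 was 0.12, beside -0.01 over all tested genes. The highest gene per kb of each list was taken here over all bins of a gene. On the most counted bin that no other gene touches, 4 lists had another highest gene, namely PCYT2 in place of ALDH3A2, CERS2 of DEGS1, ABCC1 of APOM and GNAI2 of GNAI1.

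Of 7 tested genes of sphingosine supply and disposal, 4 rose (57.1%) and 1 fell (14.3%) by the adjusted p. Of all tested genes 18.8% rose and 18.7% fell. The lists are small and their counts carry no test. Of 4 tested ceramidases, which free sphingosine from ceramide, 3 rose by the adjusted p (ASAH1, ASAH2 and ACER3), and ASAH1, the lysosomal ceramidase and the highest of them per kb, went from 186 ± 11.99 to 223 ± 14.5 CPM (log2 fold change 0.26 ± 0.07, adjusted p = 0.0106). Of the genes that handle the lyase products, ALDH3A2, which oxidizes the hexadecenal released by SGPL1, rose from 83.7 ± 3.8 to 138 ± 3.1 CPM (0.72 ± 0.07, adjusted p = 1.03e-06), and ETNPPL, which degrades phosphoethanolamine, fell (-0.37 ± 0.12, adjusted p = 0.0214). PCYT2, which uses phosphoethanolamine, had a log2 fold change of -0.19 (adjusted p = 0.052).

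Ceramide synthesis held the largest rise and the largest fall of these lists. Of 8 genes of serine palmitoyltransferase, the entry enzyme of sphingolipid synthesis, and its regulators, SPTLC3 and SPTSSB rose, SPTSSA fell and 5 did not pass. SPTLC3, an alternative catalytic subunit, rose from 0.0866, 0.191 and 0.198 CPM in WT to 0.957, 1.06 and 1.56 CPM in MUL1(-/-), a log2 fold change of 2.90 ± 0.29 (adjusted p = 2.12e-06). SPTLC2, the main form of that subunit, had a log2 fold change of 0.12 (adjusted p = 0.189). ORMDL2, the highest of the list per kb, had a log2 fold change of 0.19 (adjusted p = 0.155).

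Of 8 tested genes for the later steps to ceramide, DEGS1 rose, CERS1 fell and 6 did not pass. By the adjusted p 12.5% rose and 12.5% fell, beside 18.8% and 18.7% of all tested genes. CERS1, a ceramide synthase, fell from 5.72, 6.19 and 5.60 CPM to 2.24, 2.34 and 1.90 CPM (-1.43 ± 0.12, adjusted p = 4.79e-07). Its bins were separated from those of GDF1, with which it shares an identifier, and reads of both cannot be fully parted. DEGS1, the desaturase that turns dihydroceramide into ceramide and the highest of its list per kb of all bins, rose from 150 ± 16.5 to 226 ± 17.4 CPM (0.59 ± 0.08, adjusted p = 6.003e-05). Of 16 genes that use or break down ceramide and sphingomyelin, SMPD2 rose, SAMD8 fell (-0.69 ± 0.08) and 14 did not pass. Among the 14 were CERK (0.01) and SMPD4 (0.10), the highest per kb of their lists. By the adjusted p 6.25% of the 16 rose and 6.25% fell.

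Of 6 other transporters and carriers, ABCC1 rose (0.25 ± 0.07, adjusted p = 0.0075) and APOM, the S1P carrier of plasma lipoproteins and the highest per kb of all bins, fell (-0.30 ± 0.09, adjusted p = 0.0116). For APOM 88.8% of the counts lie in bins touched by other genes, and without them its adjusted p was 0.612. By the adjusted p 16.7% of the 6 rose and 16.7% fell, beside 18.8% and 18.7% of all tested genes.

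Downstream of the receptors, the G protein subunits differed in direction. GNAI1, the highest of them per kb of all bins, fell from 60.02 ± 2.47 to 42.8 ± 2.8 CPM (-0.49 ± 0.07, adjusted p = 0.000107). Chosen after its values were seen, GNAI2 fell from 54.9 ± 2.6 to 33.1 ± 2.1 CPM (-0.73 ± 0.08). GNA11, of the Gq class and also chosen after its values were seen, rose from 48.6 ± 2.1 to 92.4 ± 6.8 CPM (0.93 ± 0.07), and 58.4% of its counts lie in bins touched by other genes. The other 4 subunits did not pass. By the adjusted p 14.3% of the 7 subunits rose and 28.6% fell, beside 18.8% and 18.7% of all tested genes.

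Of 4 tested genes of receptor desensitization, ARRB1, ARRB2 and WWP2 rose, ARRB2, a beta-arrestin and the highest per kb, from 175 ± 11.9 to 216 ± 7.6 CPM (0.30 ± 0.07, adjusted p = 0.00278). Of 7 targets of RhoA, SRF and YAP signalling, EGR1 and CCN2 rose. EGR1, an immediate early transcription factor, was at 6.53, 7.54 and 6.49 CPM in WT and 15.4, 21.5 and 8.65 CPM in MUL1(-/-), a log2 fold change of 1.15 ± 0.22 (adjusted p = 0.000755). Its MUL1(-/-) libraries were all above WT but spread widely among themselves, and without MUL1(-/-) replicate 2 the value was 0.82. SRF, the highest of the list per kb, had 0.21 (adjusted p = 0.0505).

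In the parallel system of lysophosphatidic acid (LPA), 9 genes were tested. LPAR2, an LPA receptor, fell (-0.44 ± 0.11, adjusted p = 0.0065), and PLPP2, a lipid phosphate phosphatase, fell from 1.204, 0.742 and 0.968 CPM to 0.324, 0.495 and 0.347 CPM (-1.32 ± 0.23, adjusted p = 0.000412). LPAR3 (-0.27) and PLPP1 (-0.06), the highest of their lists per kb, did not pass. By the adjusted p none of the 9 rose and 22.2% fell, beside 18.8% and 18.7% of all tested genes.

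**Figure D4:**
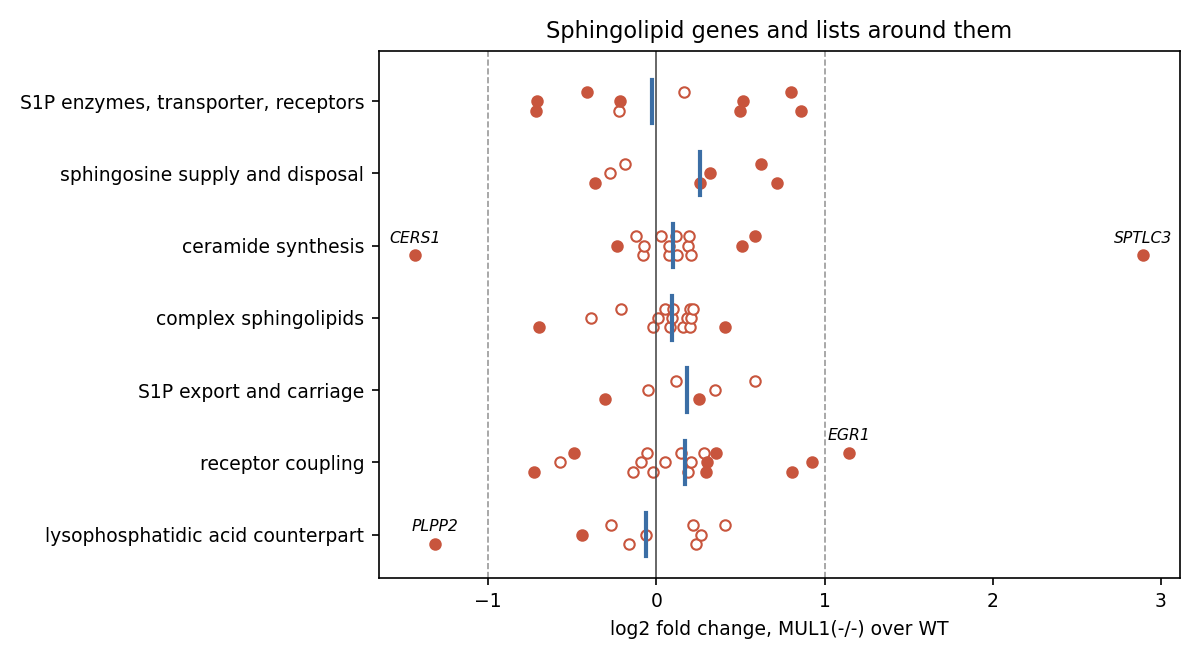
Log2 fold change of MUL1(-/-) over WT for the 10 S1P genes and the tested genes of 6 lists around them, filled where the adjusted p was under 0.05, with list medians as blue bars and the thresholds of 1 and -1 dashed. Named genes passed both thresholds. The S1P genes spread from -0.71 to 0.86 on both sides of 0, with few near it.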

How the data were processed

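RNA of 3 WT and 3 MUL1(-/-) HEK293 libraries was compared. The authors deposited a table of raw counts, without normalization, over 597973 exon bins per library, and per the labels a SMARTER mRNA-Seq kit was used and the submitters' processing notes name Trimmomatic 0.36, STAR 2.5.2b and GRCh38. The counting program is not given in the sources used here. Bins were summed per gene. Where a bin's identifier joined several genes, same-strand GENCODE 29 exons assigned it, and bins shared by them were left out. A read counts in each bin it touches, so sums exceed reads. The floor of 3 counts covers counting error only, while intervals of fold changes come from the fit and include the spread between libraries.

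Gene counts were tested with edgeR 4.0.16 in R 4.3.3 (TMM, filterByExpr, quasi-likelihood test, Benjamini-Hochberg), with calls made where the adjusted p was below 0.05 and the log2 fold change above 1 or below -1, after a check on simulated data. DESeq2 1.42.0, limma 3.58.1, other scalings, filters, gene counts and left-out libraries were alternatives. The named genes were the 10 genes, MUL1, S1PR4, list genes past both thresholds and the highest gene per kb (all bins) of each list. Other list genes were named outside this rule, among them ETNPPL, PCYT2, SPTLC2, SAMD8, ABCC1, LPAR2, GNAI2 and GNA11. Members, lists and tests were chosen with earlier results of these data known. Promoter sequences matched 8 of 10 genes. A cell identity marker is not reported here.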

Additional observations from a re-analysis of the deposited data

How the results depend on the processing

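The count of S1P genes past both thresholds was 0 higher and 0 lower, and stayed so in every alternative except these. In unshared bins it was 1 higher (SPNS2), by the adjusted p alone it was 4 higher and 4 lower, and after subtracting the median of 20 neighbours it was 1 lower (S1PR5, -1.31). By the adjusted p alone, the number higher was 4 in every setting that tested all 10 genes, and the number lower was 3 to 5. Leaving out single libraries gave 0 to 0 past both thresholds, and 4 to 4 higher and 3 to 4 lower by the adjusted p alone. Subtracting the neighbour median turned SGPL1 from -0.22 to 0.17 and brought SPHK2 to 0.21, SPNS2 to 0.42, SGPP1 to -0.07 and S1PR2 to 0.01. SGPL1 lost its call with library totals (adjusted p = 0.122), with no filter on low counts (0.105) and without WT replicate 1 (0.109), WT replicate 2 (0.129), MUL1(-/-) replicate 1 (0.128) or MUL1(-/-) replicate 2 (0.170). S1PR5 lost it with DESeq2 (0.120) and without WT replicate 3 (0.0533). The cause was not tested. With joined identifiers kept whole, S1PR2 and S1PR3 have no value of their own. Neighbour medians with 10 or 40 genes moved by more than the standard error of the gene for SPHK2 (0.42 with 40), SPNS2 (0.56 with 10), S1PR1 (-0.20 with 10) and S1PR3 (0.11 with 40).

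Over all genes, a minimum of 1 CPM in 3 libraries gave 331 higher and 446 lower against 1064 and 973, from 16020 tested genes. Libraries with the same number correlated at -0.08 to 0.16 in their deviations from the group means, so the replicate numbers were not taken as pairs. With the replicate block, 1015 genes were higher and 940 lower, and the S1P genes gave 0 and 0 past both thresholds and 4 and 4 by the adjusted p alone. Depth limits S1PR4, at 2 to 8 counts.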
